A study of Mus musculus with 797 samples.

Results

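The subject is a small population of inhibitory neurons, the GABAergic nuclei that express Adarb2, among single nuclei sorted from mouse brain. Members were selected on their read counts: Gad1 plus Gad2, the enzymes that make GABA, at 10 CPM (counts per 1e6 reads of the nucleus) or more, Slc17a7, which loads glutamate into the vesicles of excitatory cells, under 10 CPM, and Adarb2 at 10 CPM or more. This gave 53 nuclei out of the 797 analysed, of which 781 passed the limits of 50000 reads and 1000 genes. A split inside the members used Vip: 15 nuclei had Vip at 10 CPM or more and are called the Vip type, and 37 had no Vip but Npy or Lamp5 at 10 CPM or more and are called the Lamp5/Npy type. The last member had none of the 3 genes.

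All mice were C57Bl/6J and had received, as young adults, 1 AAV vector in the PHP.eB capsid at 5e11 vector genomes, and nuclei were collected 3 to 4 weeks afterwards. The vectors differed in the enhancer or promoter that drove H2B-SYFP2, a fluorescent histone used for sorting, and there are 20 such vector labels. No uninjected or unsorted nuclei were part of this comparison, and only nuclei bright with a reporter entered. No animal is named, so each vector label was treated as 1 sample. With the label as a block, p-values measure how far the difference between groups of nuclei varies over labels, a spread that may be technical. Library names fall into 3 sets, called A, B and C here, with 516, 178 and 87 nuclei kept.

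Adarb2 encodes an RNA-editing family protein and marks cortical interneurons that arise in the caudal ganglionic eminence (CGE). Those made in the medial ganglionic eminence (MGE) become the Pvalb and Sst classes and keep Lhx6, Sox6 and Satb1. Among CGE-derived cells, Vip interneurons mostly inhibit other interneurons, whereas Lamp5 and neurogliaform cells, many of which make neuropeptide Y, release GABA diffusely in the superficial cortex.

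Every nucleus is labelled striatum, and few had several genes of striatal spiny projection neurons. Reads of 3 or more of 13 such genes were found in 28 of 781 nuclei kept (3.59%) and in 0 of the 53 members, which allows a share of up to 5.66% and so does not set the members apart. In members 8 of the 13 genes had no read and the median summed level of the list was 0 CPM; in the 257 other GABAergic nuclei it was 287 CPM, in a list that holds Tac1, read in 83 of them. Nuclei with Slc17a7 at 10 CPM or more and Gad1 plus Gad2 under 10 CPM, glutamatergic neurons that the striatum is not known to contain, numbered 385. The members are therefore described by their genes, and no position in the brain is assigned to them. Markers of other cells were low in most members: for astrocytes 3 of 6 genes, for oligodendrocytes 2 of 5, for precursors 3 of 4, for microglia 4 of 5 and for vessels 3 of 4 had no read in any member, and the median summed level of each list was 0 CPM, with maxima in single nuclei of 799, 1148, 397, 427 and 3.15 CPM. Members had 107455 to 573017 gene reads per nucleus with a median of 327010.

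The genes that split the members lie on different chromosomes (mm10): Adarb2 at chr13:8202866-8768747, Vip at chr10:5639218-5647617, Lamp5 at chr2:136052239-136069917 and Npy at chr6:49822710-49829507. To show what stands before the start of peptide genes that separate these populations, the last 100 bases upstream of the RefSeq start (GRCm38.p6, written 5′ to 3′ on the gene's strand) are given for Vip and Tac2, high in the Vip type, for Npy, high in the Lamp5/Npy type, and for Sst, high in the other GABAergic nuclei. Capitals mark TATAAA, the TATA box core, or TGACGTCA, the full cAMP response element, searched on both strands.
Vip, chr10:5639118-5639217, plus strand: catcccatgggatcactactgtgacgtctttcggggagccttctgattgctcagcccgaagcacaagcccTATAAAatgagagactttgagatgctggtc
Tac2, chr10:127724378-127724477, plus strand: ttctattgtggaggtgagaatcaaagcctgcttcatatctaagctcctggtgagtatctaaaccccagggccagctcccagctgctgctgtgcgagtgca
Npy, chr6:49822610-49822709, plus strand: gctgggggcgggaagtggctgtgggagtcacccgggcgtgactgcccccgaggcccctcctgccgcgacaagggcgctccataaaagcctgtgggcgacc
Sst, chr16:23890845-23890944, minus strand: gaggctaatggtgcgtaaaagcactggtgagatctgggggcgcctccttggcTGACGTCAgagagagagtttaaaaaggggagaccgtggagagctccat
TATAAA begins 30 bases before the Vip start, and 5.56% of the 32851 promoters in the table hold it in the same window. TGACGTCA begins 48 bases before the Sst start, and 1.15% of promoters hold it. Neither motif had an exact match in the Tac2 and Npy windows. Near matches, such as tgacgtct in the Vip window and cataaa in the Npy window, were not searched or marked. Crh and Htr3a had no entry in the promoter table.

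Adarb2 members made up 53 of the 310 GABAergic nuclei without Slc17a7, or 17.1% (exact Clopper-Pearson 95% interval 13.1 to 21.8, which covers counting error only). The Vip type was 28.3% of members (16.8 to 42.3) and the Lamp5/Npy type 69.8% (55.7 to 81.7). By library set, members were 16.9% (12.2 to 22.5) of GABAergic nuclei in A, 13.8% (6.15 to 25.4) in B and 24.2% (11.1 to 42.3) in C, and the intervals overlap. The gates fell in wide gaps. The 2 members with the least Adarb2 had 174 and 180 CPM, and the most in any other GABAergic nucleus was 3.77 CPM. For Vip the lowest inside values were 1377 and 4018 CPM, and every other member had 0. For Npy they were 50.7 and 209 CPM, and for Lamp5 143 and 203 CPM, with 0 in the members outside.

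Members came from 15 of the 20 vector labels. Out of the nuclei kept, hI56i gave 10 of 39, or 25.6% (13.04 to 42.1), and AiE0450h 7 of 39, or 17.9% (7.54 to 33.5). hI56i is a Dlx-derived element used to reach forebrain GABAergic neurons. DLX2.0, AiE0390m and CMV gave 5 each, AiE0600m and AiE0452h 4 each, AiE0447h 3, and AiE0391h, AiE0682h and AiE0140h 2 each. hSyn1, AiE0743m_3xC2, AiE0410m and AiE0078h gave 1 each. AiE0779m, AiE0475m, AiE0445h_3xC2, AiE0401h and AiE0387m gave 0 of 38 to 40 nuclei, which allows up to 7.5% to 7.89%. For AiE0475m, 17 GABAergic nuclei were kept and 0 were members, which allows a share of up to 17.6%. The Vip type was spread thinly: 5 of the 15 came from AiE0450h, where they were 5 of 7 members (71.4%, 29.04 to 96.3), and 10 other labels gave 1 each. hI56i gave 1 Vip-type nucleus among its 10 members (interval 0.253% to 44.5%). Labels also differ in how many of their nuclei were GABAergic, and over GABAergic nuclei the order is another. Members were then 3 of 8 for AiE0447h (37.5%, 8.52 to 75.5), 10 of 34 for hI56i (29.4%, 15.1 to 47.5), 5 of 20 for CMV and 7 of 30 for AiE0450h. Both GABAergic nuclei of AiE0140h and the 1 of AiE0078h were members. With 1 sample per vector label, no test between vectors was made.

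**Figure D1:**
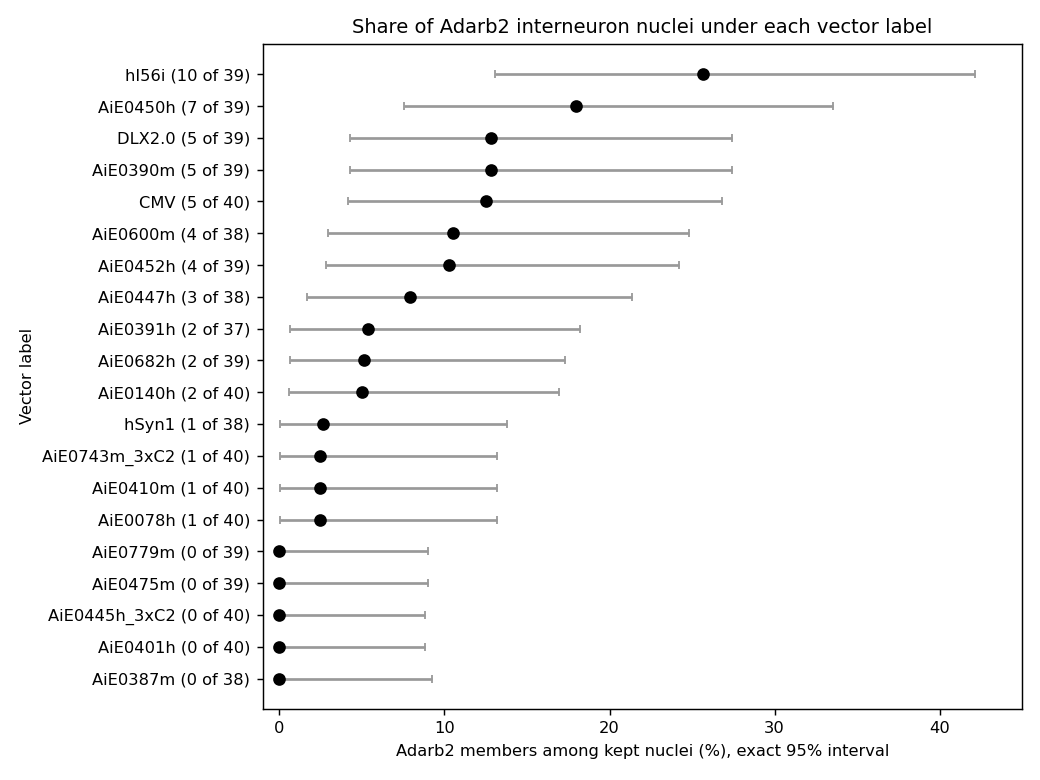
Share of Adarb2 members among the nuclei kept under each vector label (x axis, percent), with exact 95% intervals as bars. On this scale hI56i stands highest with 10 of 39, 5 labels have 0, and most neighbouring intervals overlap.

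Across the 53 nuclei the 2 types stood apart in several genes that the gates did not use. The plot of marker genes by nucleus shows Crh, Synpr and Htr3a read in most Vip-type nuclei and few of the Lamp5/Npy type, and Id2, Reln and Ndnf more often in the Lamp5/Npy type. Prox1, a CGE transcription factor, was read in both, and Sst, Pvalb and Sox6 in few.

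**Figure D2:**
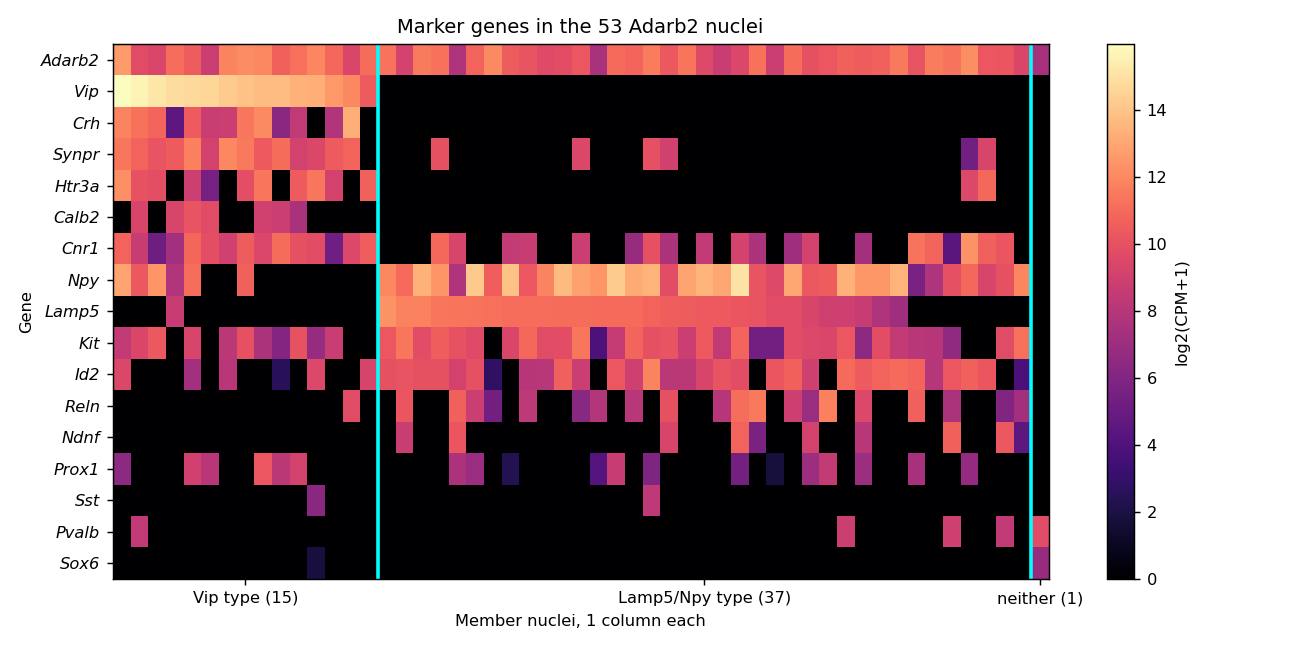
Each column is 1 of the 53 Adarb2 members and each row a gene; colour gives log2(CPM+1). Cyan lines separate 15 Vip-type nuclei, 37 Lamp5/Npy-type nuclei and 1 nucleus of neither type; Adarb2, Vip, Npy and Lamp5 were used to form the groups and are shown as a description.

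To ask how the Vip and Lamp5/Npy types differ, counts were summed per vector label and type in the 10 labels that hold both (14 Vip-type and 32 Lamp5/Npy-type nuclei) and tested with edgeR's quasi-likelihood method, with the vector label as a block. The groups were cut from the same nuclei, so the test asks which other genes go with the gate genes. Outside the gate genes, 3 of 9959 genes tested were higher in the Vip type (0.0301%) and 4 were lower (0.0402%), at a Benjamini-Hochberg adjusted p under 0.05. Unadjusted p was under 0.05 for 50 genes in the higher and 1427 in the lower direction. The median log2 fold change over all genes was -2.20. The Vip-type sum held 1 nucleus in 9 of the 10 labels, while the Lamp5/Npy-type sum held up to 8. The spread over labels therefore includes the spread between single nuclei, and the p-values do not separate them. In AiE0140h, AiE0390m and AiE0447h the types came from different library sets, so there the block does not compare within a set. In hI56i, CMV, DLX2.0 and AiE0450h the types shared a set, but nuclei of another set were also summed. For hI56i the 1 Vip-type nucleus was of set C, and 6 of the 8 Lamp5/Npy-type nuclei were of set A. Only AiE0391h, AiE0452h and AiE0600m held both types within a single set. With the vector label within a library set as the unit, 7 units held both types, and edgeR called 4 genes higher (Crh, Tac2, Htr3a and Synpr) and 1 lower (Reln). With equal numbers of nuclei of both types in each label (11 against 11, matched on reads, a choice made after seeing the data), the median was -0.58. The same edgeR test then called 4 of 8425 genes higher (0.0475%) and 0 lower (0%), with 178 genes lower at an unadjusted p under 0.05. With size factors by edgeR's RLE method in place of TMM, 5 genes were higher and 1 lower.

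The 3 higher genes encode a stress peptide, a tachykinin and a serotonin receptor. Crh, corticotropin-releasing hormone (chr3:19693401-19695396), was read in 13 of 15 Vip-type and 0 of 37 Lamp5/Npy-type nuclei. Its level over the summed reads of each label ranged from 0 to 10073 CPM in the Vip type with a median of 1581, and was 0 in all 10 labels in the other type. The Vip type was higher in 8 labels, and both types were at 0 in AiE0452h and CMV. Over all nuclei of both types Crh was at least 6582-fold higher in the Vip type, against the 3 counts that a sum of 0 allows over the group. The edgeR adjusted p was 4.76e-08, and 1.97e-06 with equal numbers of nuclei. Over the 24 alternatives that could be fitted it lay between 1.36e-12 and 0.26, the highest being the fit on library set A alone.

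Tac2, which encodes neurokinin B (chr10:127724478-127731768), was read in 11 of 15 and 3 of 37 nuclei. Per label it ranged from 0 to 7700 CPM in the Vip type, with a median of 1536, and from 0 to 1013 CPM in the Lamp5/Npy type, with a median of 0. It was higher in the Vip type in 9 of 10 labels (log2 fold change 10.63, SE 1.85, edgeR adjusted p 1.81e-05) and at 0 in both types in AiE0452h. The adjusted p over 25 alternatives ran from 3.54e-09 to 1, and the call was lost in 4: without library set B, in set A alone, without the vector label as a block, and with Vip-type nuclei free of Npy and Lamp5. Htr3a, a subunit of the ionotropic serotonin receptor that CGE interneurons are known for (chr9:48899213-48911099), was read in 11 of 15 and 2 of 37 nuclei. Its per-label level had a median of 941 CPM and a maximum of 4922 CPM in the Vip type. In the other type it reached 257 CPM with a median of 0. The call for Htr3a (log2 fold change 9.29, SE 2.23, edgeR adjusted p 0.0345) passed in 14 of 25 alternatives, with adjusted p from 1.77e-05 to 1, and was lost on leaving out any 1 of 6 vector labels (AiE0140h, AiE0391h, AiE0450h, AiE0452h, AiE0600m or DLX2.0). With equal numbers of nuclei its edgeR adjusted p was 0.00017. Both tallies of 25 include gates at 5 and 20 CPM, which kept the same nuclei and so repeat the fit with all nuclei summed.

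Synpr, a synaptic vesicle protein, missed the threshold with all nuclei summed (log2 fold change 7.67, SE 2.02, edgeR adjusted p 0.0724) and passed with equal numbers (edgeR adjusted p 0.00292). It was named after its values were seen. Reads of it were found in 14 of 15 Vip-type and 6 of 37 Lamp5/Npy-type nuclei, and the per-label medians were 1785 and 0 CPM. The difference in Crh was present in each library set. In set A it was read in 8 of 10 Vip-type and 0 of 27 Lamp5/Npy-type nuclei. In set B the counts were 3 of 3 and 0 of 5, and in set C 2 of 2 and 0 of 5. Glutamatergic nuclei, with a median of 279379 reads against 345067 in the Vip type and 317554 in the Lamp5/Npy type, had Crh in 6 of 385 and Htr3a in 1 of 385.

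**Figure D3:**
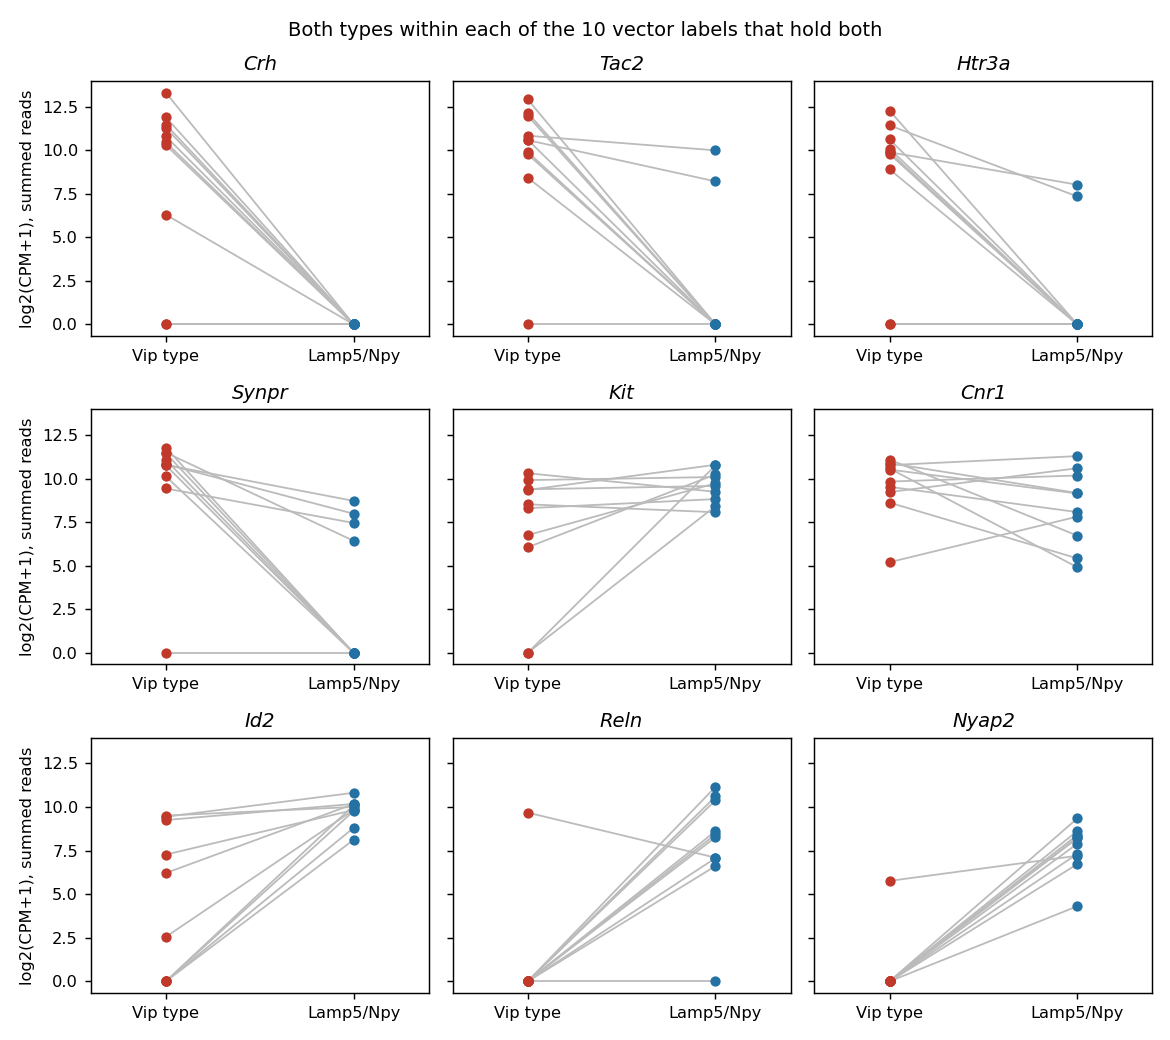
Levels of 9 genes as log2(CPM+1) of the summed reads of each type (y axis) within the 10 vector labels that hold both types; each line joins the 2 types of 1 label. Crh and Tac2 lie above the Lamp5/Npy value in 8 and 9 labels, Nyap2 lies below it in 10, and Kit and Cnr1 cross.

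Of 19 Vip subclass genes, chosen from known markers with earlier results in view, 14 were tested. Of these 3 were higher in the Vip type (Crh, Tac2 and Htr3a) and 0 lower, beside 0.0301% higher and 0.0402% lower over all genes. The median log2 fold change was 4.01 against -2.20 over all genes. The other members of that list did not pass with all nuclei summed. Calb2, the calcium-binding protein calretinin, was read in 7 of 15 Vip-type and 0 of 37 Lamp5/Npy-type nuclei (edgeR adjusted p 0.24). Cxcl14, a chemokine, was read in 11 of 15 and 9 of 37, and Penk, which encodes enkephalins and was read too rarely to be tested, in 2 of 15 and 0 of 37. Cck, cholecystokinin, was read in 7 of 15 and 14 of 37. Cnr1, the cannabinoid receptor of many Cck basket cells, is not on that list. It was read in 15 of 15 and 20 of 37 nuclei, with per-label medians of 1185 and 417 CPM (edgeR adjusted p 0.867).

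On the Lamp5/Npy side the genes called with all nuclei summed were Reln, the extracellular matrix protein reelin, Nxph1, a neurexin ligand, Ptprm, a receptor phosphatase, and Nyap2, a PI3-kinase adaptor. None of the 4 passed with equal numbers of nuclei (edgeR adjusted p 0.463, 0.987, 0.49 and 0.987) or with limma on mean log2(CPM+1), so they are given as values. Reln was read in 1 of 15 Vip-type and 20 of 37 Lamp5/Npy-type nuclei; its per-label level reached 819 CPM in the Vip type, in AiE0447h alone, and 2281 CPM in the other, with medians of 0 and 325. Nxph1 was read in 0 and 17, Ptprm in 1 and 27, and Nyap2 in 1 and 32 nuclei. Nyap2 was lower in the Vip type in all 10 labels, with medians of 0 and 267 CPM.

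Of 21 Lamp5 and neurogliaform genes, 14 were tested, 0 were higher, 1 was lower in the Vip type (Reln), and the median was -5.62. Over all genes tested 0.0301% were higher and 0.0402% lower, and the median was -2.20. Ndnf, a secreted neurotrophic factor of layer 1 neurogliaform cells, was read in 0 of 15 and 10 of 37 nuclei (edgeR adjusted p 0.0724). Cplx3, a complexin, was read in 1 and 13. Id2, a repressor of helix-loop-helix factors, was read in 6 of 15 and 32 of 37 nuclei and was lower in the Vip type in 10 of 10 labels, with medians of 39.1 and 968 CPM and an edgeR adjusted p of 0.144. Kit, the stem cell factor receptor, was found in 11 of 15 and 34 of 37, with medians of 341 and 805 CPM (edgeR adjusted p 0.35). The levels of Kit and Id2 overlap between the types over the labels.

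With 7 of 9959 genes called in all, few calls in a list of any kind could be seen, and 1477 of the 9959 had an unadjusted p under 0.05. Beyond genes already named, other gene groups had no call with all nuclei summed. By edgeR 0 of 16 CGE and lineage factors tested were called, with 3 at an unadjusted p under 0.05. The counts were 0 of 18 for GABA synthesis, transport and receptors (3 unadjusted), 0 of 19 for glutamate receptors (5 unadjusted) and 0 of 34 for voltage-gated channels (7 unadjusted). Among 46 adhesion and synapse organizer genes 2 were lower in the Vip type, Nxph1 and Ptprm. Of 10 immediate early genes tested by edgeR 0 were called, with 1 at an unadjusted p under 0.05. The mean log2(CPM+1) over the 14 genes of that list was 2.37 ± 1.06 (SD over 15 nuclei) in the Vip type and 0.73 ± 0.82 (SD over 37 nuclei) in the Lamp5/Npy type, a description over nuclei and not over samples. Reads per nucleus, genes per nucleus at equal reads and the mitochondrial share did not pass an exact two-sided sign-flip permutation test over the 10 labels (p 0.434, 0.295 and 0.52, all with an adjusted p of 0.623). Genes per nucleus at equal reads had means over labels of 2328 in the Vip type and 2840 in the Lamp5/Npy type. The difference was -512 ± 1335 (SD, n = 10 labels), and the Vip type was higher in 2 of 10 labels.

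Within the Vip type, nuclei differed in their peptides. All 7 nuclei with Calb2 also had Crh, and of the 8 without Calb2, 6 had Crh. Calb2 and Cck were read together in 1 of 15 nuclei, Calb2 alone in 6, Cck alone in 6 and neither in 2. Npy was read in 6 of the 15 nuclei, from 223 to 7729 CPM, and all 6 had Crh; Lamp5 was read in 1. The 6 nuclei with Npy had Vip from 15917 to 63673 CPM, and the 9 without had 1377 to 25005 CPM. These nuclei count as Vip type by the rule, and 2 of the 15 carried Sst, Pvalb or Lhx6 at 10 CPM or more.

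Within the Lamp5/Npy type, all 37 nuclei had Npy and 30 had Lamp5. Carbonic anhydrase gene Car4 was read in 24 of the 30 nuclei with Lamp5 and in 0 of the 7 without it. Htr3a was read in 0 of 30 and 2 of 7, Cck in 10 of 30 and 4 of 7, and Cnr1 in 14 of 30 and 6 of 7. The 2 nuclei with Htr3a had Cnr1 at 5009 and 1610 CPM and no read of Kit. Whether the 37 nuclei form 1 class was not tested. The median Npy level was 6621 CPM with Lamp5 and 994 CPM without. All 10 nuclei with Ndnf had Reln and Kit, while of the 27 without Ndnf 10 had Reln and 24 had Kit. Nos1, nitric oxide synthase, was read in 6 of 37. The gene Lhx6, which marks an MGE-derived Lamp5 population, was read in 1 of 37. Sst, Pvalb or Lhx6 stood at 10 CPM or more in 5 of the 37. These counts compare nuclei that share vector labels and carry no test.

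Over the 53 members, the genes most like Vip by Pearson correlation of log2(CPM+1) among 5236 genes read in at least 20% of members were Crh (r 0.893), Synpr (0.790), Adcy2 (0.723), Htr3a (0.695) and Tac2 (0.693). Those most like Lamp5 were Ptchd4 (0.685), Nyap2 (0.676), Rapgef4 (0.670), Npy (0.649) and Igsf11 (0.614). For Npy they were Lamp5 (0.649), Nyap2 (0.641), Pde11a (0.557), Ptchd4 (0.546) and Kctd16 (0.530). No gene followed Adarb2 closely; the highest was Nup98 (0.425). Nuclei share libraries and vector labels, and these correlations across nuclei are descriptions.

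The second comparison set members against the other GABAergic nuclei without Slc17a7, of which there were 257. Of these, 245 had Sst, Pvalb or Lhx6 at 10 CPM or more. In 13 vector labels with both, 50 members and 235 other nuclei were summed and tested as above. With all nuclei summed, 91 of 14296 genes were higher in members (0.637%) and 4166 lower (29.1%), and the median log2 fold change over all genes was -3.16. Members also had fewer genes per nucleus at 50000 reads, with a mean over labels of 2472 against 2905, a difference of -433 ± 257 (SD, n = 13 labels), higher in 1 of 13 (exact two-sided sign-flip permutation p 0.000488, adjusted over 6 tests 0.00293). The part of that difference in the lower calls was not tested. With equal numbers of nuclei, 50 against 50, the median was -0.30, and edgeR called 52 of 12380 genes higher (0.42%) and 38 lower (0.307%). Of these, 38 higher and 38 lower genes were also called with all nuclei summed. A gene is described as lower in members only where it passed with equal numbers.

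**Figure D4:**
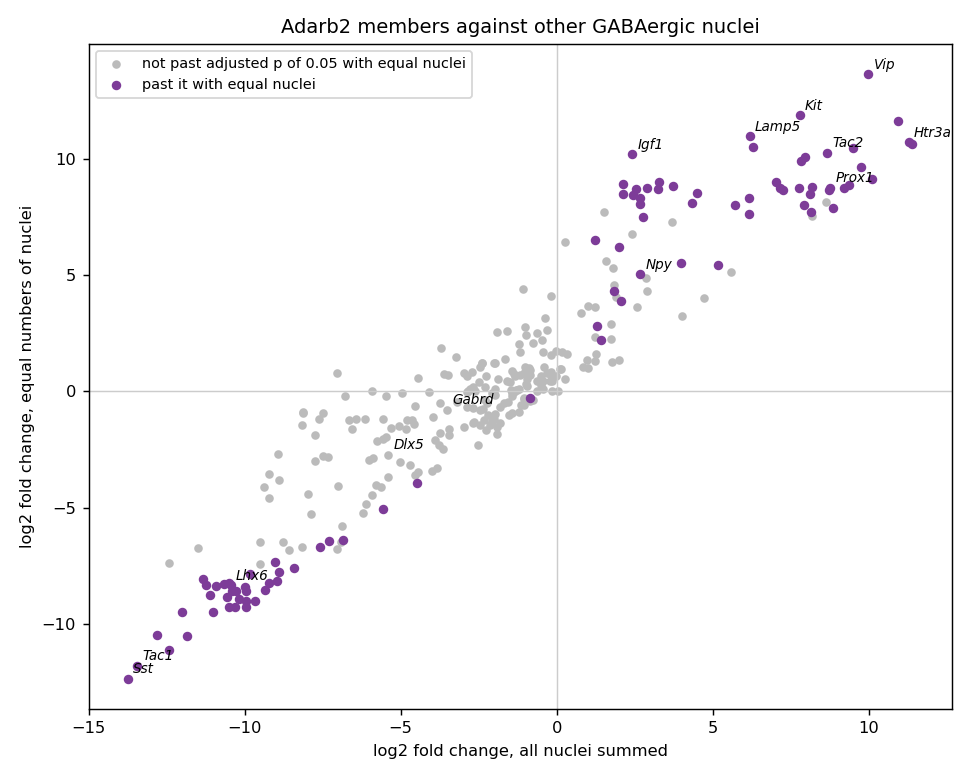
Log2 fold change of members against other GABAergic nuclei with all nuclei summed (x axis) and with equal numbers of nuclei per label (y axis), for genes of the marker lists and genes called by either fit and named; purple points passed an edgeR adjusted p of 0.05 with equal numbers. Genes such as Dlx5 and Gabrd lie left of 0 with all nuclei summed and were not called with equal numbers.

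Membership used Adarb2 but no other marker, and 5 of the 6 other markers named for this population were higher in members under both fits: Vip, Lamp5, Npy, Kit and Htr3a. They had been picked with earlier results of these nuclei known and give no independent support. Kit was read in 45 of 53 members and 11 of 257 others. Its per-label level was 282 to 1507 CPM in members, with a median of 752, and 0 to 50.3 CPM in the others, with a median of 3.66, so the groups do not overlap (log2 fold change 11.89, SE 1.25, edgeR adjusted p 2.79e-18 with equal numbers; over 27 alternatives 7.04e-20 to 1.05e-05). Npy, a peptide shared with Sst cells, was read in 43 of 53 and 100 of 257 nuclei, and was higher in members in 13 of 13 labels, with medians of 4642 and 496 CPM. Lamp5 was read in 31 and 17 nuclei, Vip in 15 and 7, and Htr3a in 13 and 1. Cnr1, read in 35 of 53 members and 79 of 257 others, was not called by edgeR under either fit. By limma on mean log2(CPM+1) it was called higher in members.

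Some genes of a mixed list of CGE and other interneuron lineage factors were higher in members. Of 17 such genes 16 were tested. With equal numbers 4 were higher (Prox1, Nfib, Nfix and Dlx6os1) and 0 lower, beside 0.42% higher and 0.307% lower over all genes. The median log2 fold change was 1.74 against -0.30 for all genes. Prox1 was read in 19 of 53 members, 1 of 257 other GABAergic nuclei and 0 of 385 glutamatergic nuclei (log2 fold change 8.77, SE 2.13, edgeR adjusted p 0.00939). Nfib, a nuclear factor I protein, was read in 49 of 53 and 39 of 257, but also in 235 of 385 glutamatergic nuclei. Its per-label range was 207 to 2052 CPM in members and 9.77 to 81.2 CPM in the others, with no overlap. Nfix passed in 16 of 27 alternatives, with adjusted p up to 0.269. Dlx5 and Sp9, lower with all nuclei summed, were not called with equal numbers (edgeR adjusted p 0.947 and 0.841). Nr2f1, Nr2f2, Sp8 and Npas1, also on the list, were not called by edgeR under either fit or by limma. Erbb4, the neuregulin receptor of interneurons, was read in 41 of 53 and 166 of 257.

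Among Lamp5 and neurogliaform genes 7 of 16 tested were higher in members with equal numbers (Cacna2d1, Kit, Ndnf, Cplx3, Car4, Id2 and Hapln1) and 1 was lower (Lhx6), with a median of 4.59. Over all genes in that fit 0.42% were higher and 0.307% lower, and the median was -0.30. Car4 was read in 31 of 53 and 6 of 257, at 243 to 1370 CPM per label in members and 0 to 18.4 CPM in the others (edgeR adjusted p 3.48e-15). Id2 was read in 38 and 19 nuclei, also without overlap between the label levels, at 212 to 1195 and 0 to 63.97 CPM. Cacna2d1, a calcium channel auxiliary subunit, was read in 2 of 15 Vip-type and 28 of 37 Lamp5/Npy-type nuclei. Among Vip subclass genes 4 of 16 tested were higher (Prox1, Htr3a, Tac2 and Cxcl14) and 0 lower. Tac2 was read in 14 of 53 and 5 of 257 nuclei and Cxcl14 in 20 and 9. Outside the lists, Egfr, the epidermal growth factor receptor, was read in 22 of 53 members and 1 of 257 others (edgeR adjusted p 2.09e-05), and Pde11a, a phosphodiesterase, in 22 and 2 (edgeR adjusted p 0.00551). Crispld1 was read in 20 and 8. Pnoc, the nociceptin precursor, and Igf1, insulin-like growth factor 1, were named after their values were seen. They were read in 30 and 24, and in 32 and 46, of the 53 members and 257 others, and both passed with equal numbers (edgeR adjusted p 0.00241 and 1.61e-06). With all nuclei summed, the Igf1 adjusted p was 0.105.

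Defining genes of the MGE classes were lower in members. Of 15 MGE interneuron genes 14 were tested, and with equal numbers 6 were lower (Sst, Pvalb, Tac1, Lhx6, Sox6 and Satb1) and 0 higher, with a median of -5.65. Over all genes in that fit 0.307% were lower and 0.42% higher, and the median was -0.30. Somatostatin, Sst, was read in 2 of 53 members and 120 of 257 others. Its per-label level did not exceed 18.7 CPM in members and ran from 560 to 13780 CPM in the others, with medians of 0 and 1935, so the groups are apart in all 13 labels (log2 fold change -12.36, SE 0.86, edgeR adjusted p 6.76e-43). Sox6 was read in 2 and 198 nuclei, with label maxima of 8.61 CPM in members and minima of 88.3 CPM in the others. Satb1 was read in 2 and 187, and Lhx6 in 1 and 104. Parvalbumin, Pvalb, was read in 5 members and 156 others; its label levels reached 186 CPM in members against a lowest level of 110 CPM in the others, so the 2 ranges overlap, although it was lower in 13 of 13 labels. Tac1, substance P precursor, had no read in any member and was read in 83 others, at least 2403-fold lower in members. Crhbp, which binds corticotropin-releasing hormone, had none in members and was read in 102 others, at least 1408-fold lower. Moxd1 and Nek7 were read in 0 members and in 92 and 121 others. Calb1, calbindin, was read in 6 and 120.

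Among channels and adhesion genes few held with equal numbers. Of 36 voltage-gated channel genes tested 2 were higher (Kcnt2 and Cacna2d1) and 1 lower (Cacna2d2). Over all genes with equal numbers 0.42% were higher and 0.307% lower. The 2 calcium channel auxiliary subunits went in opposite directions: Cacna2d2 was read in 1 of 53 members and 151 of 257 others, and Cacna2d1 in 30 and 4. Of 50 adhesion and synapse organizer genes 2 were lower, the cadherins Cdh7 (read in 3 members and 117 others) and Cdh13 (7 and 135), and 0 higher. By edgeR with equal numbers 0 of 23 glutamate receptor genes were called (5 at an unadjusted p under 0.05), and 0 of 18 genes for GABA synthesis, transport and receptors (1 unadjusted). With all nuclei summed, 11 of 24 and 3 of 19 were called in the lower direction, beside 4166 of all 14296 genes (29.1%). Pdyn, the dynorphin precursor, was among the 10 lowest genes with all nuclei summed and was read in 0 members and 40 others. It missed the threshold with equal numbers (edgeR adjusted p 0.0967), as did Unc13c (0.121). Gad1 and Gad2 entered the gate for both groups and are given as a description: summed levels were 2166 and 1496 CPM in members and 1148 and 502 CPM in the others.

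**Figure D5:**
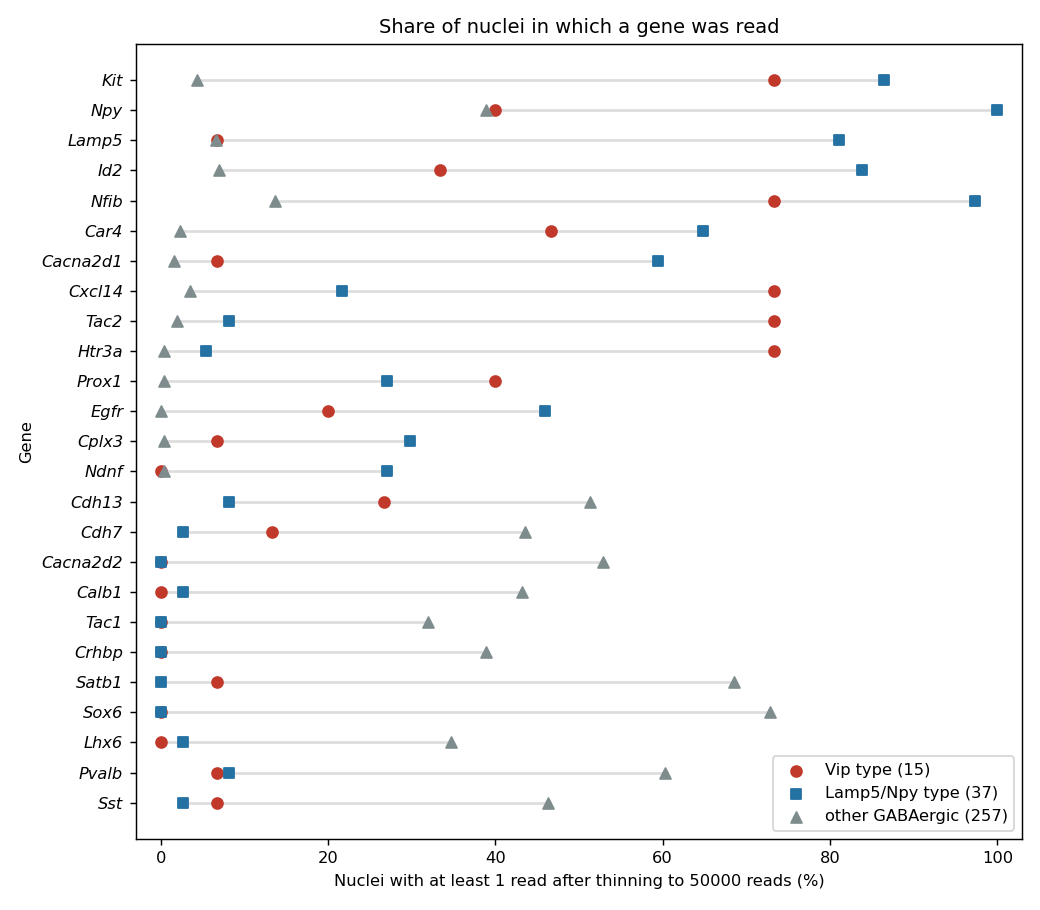
Share of nuclei with at least 1 read of a gene after each nucleus was thinned to 50000 reads (x axis, percent), for the Vip type, the Lamp5/Npy type and the other GABAergic nuclei. Kit is read in 73.3% and 86.5% of the 2 types and 4.28% of the others, and Sox6 in 0%, 0% and 72.8%; Npy and Lamp5 were used in the gate of the Lamp5/Npy type.

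Thinning to 50000 reads left these shares in place. Crh was then read in 86.7% of Vip-type, 0% of Lamp5/Npy-type, 6.61% of other GABAergic and 1.04% of glutamatergic nuclei. Htr3a was read in 73.3%, 5.41%, 0.389% and 0.26% of the same groups. Synpr was read in 93.3%, 16.2%, 37.7% and 8.57%, so the other GABAergic nuclei lay between the types. For members as a whole against other GABAergic nuclei, neither Crh nor Synpr was called (edgeR adjusted p 0.128 and 0.214 with all nuclei summed, 0.598 and 1 with equal numbers). Kit was read in 81.1% of all members before the split and 3.38% of glutamatergic nuclei. Lamp5 was read in 47.3% of glutamatergic nuclei; superficial cortical excitatory neurons are known to express this gene.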

How the data were processed

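Reporter-positive nuclei were sorted singly, and their polyadenylated RNA was amplified by SMART-Seq v4 before Nextera XT tagmentation, per the labels' protocols. The authors deposited raw counts of reads for every gene in every nucleus. There are no molecular barcodes, and PCR duplicates add to a gene's count. Alignment used STAR 2.7.2a with mm10, per the submitters' processing notes. Counting software, annotation, strand and intron settings were not given in the sources used here, so reads of overlapping genes may be shared. The table has 2501 columns; library names tied 797 to samples, and 1704 columns were left unused. No 2 of the nuclei held identical counts. Doublets were not called. Of the 360 nuclei that passed the Gad1 plus Gad2 gate, 50 also had Slc17a7 at 10 CPM or more. Whether wells held RNA of more than 1 nucleus was not tested.

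Counts were scaled to counts per 1e6 reads (CPM) per nucleus. Members and gene lists were chosen with earlier results of these data known. Counts were summed per vector label and type and fitted with edgeR 4.0.16 (TMM, filterByExpr, glmQLFit and glmQLFTest, vector label as a block) over all genes, with Benjamini-Hochberg adjustment. The SE printed beside an edgeR log2 fold change is its absolute value divided by the square root of the quasi-likelihood F. It was derived from the test and not estimated directly. Counts are without length correction, so levels are not compared between genes. Alternatives were DESeq2 1.42.0, limma 3.58.1 on mean log2(CPM+1) over nuclei with a pseudocount of 1, RLE scaling, no filter, no block, other gates, stricter nuclei, library sets and each vector label left out; equal numbers of nuclei were added after seeing the data. In limma a mean over 1 nucleus enters with the same weight as one over several. Gates at 5 and 20 CPM left the nuclei compared between the types unchanged, as did 20 CPM for members against the others. Those alternatives repeat the fit with all nuclei summed and add no check to the tallies. Gate genes were left out of the calls. Named genes are the 10 with the largest fold change in each direction among those past an adjusted p of 0.05 and of the same sign in at least 70% of labels, plus up to 6 called genes per list and the defining list members; Synpr, Id2, Igf1, Pnoc, Dlx6os1, Hapln1 and Kcnt2, and genes compared within a type, were named after their values were seen. Predicted genes were counted and not named. Shares carry exact Clopper-Pearson 95% intervals, and a count of 0 a limit of 3 nuclei or reads; both cover counting error only. The edgeR and limma fits were tested on simulated nuclei with known changes. There, summing unequal numbers of nuclei made edgeR call unchanged genes lower in members. Equal numbers nearly removed such calls but missed most genes made lower. The comparison of the types called few or none of the changed genes. Each simulated gene was drawn independently from the pooled nuclei of both groups, so differences in genes per nucleus were not built in. How many of the real lower calls arose from unequal numbers was not tested. Python 3.11.15 and R 4.3.3 were used.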

Additional observations from a re-analysis of the deposited data

Results flagged for a closer look

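Among 11 genes checked for an outlying vector label in the difference between Vip-type and Lamp5/Npy-type sums, 1 had one, and chance alone gives about 1 in 20. For Ptprm the difference of log2(CPM+1) was 1.51 in AiE0452h, where the next label stood at -5.37; the other 9 labels were all lower in the Vip type. The AiE0452h sum for the Vip type is 1 nucleus, and it is also the label in which Crh, Tac2 and Synpr were at 0 in both types.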

How the results depend on the processing

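The number of genes that differ between the Vip and Lamp5/Npy types, 7 with all nuclei summed, was 4 with limma, 4 with equal numbers of nuclei, 4 with Vip-type nuclei free of Npy and Lamp5, 3 without members carrying Sst, Pvalb or Lhx6, 2 without library set B, 1 in library set A alone, 0 without the vector label as a block (edgeR, 81 genes at an unadjusted p under 0.05) and 2074 with DESeq2; the last counted 77 higher and 1997 lower. Leaving out 1 vector label gave 4 to 17, the highest without AiE0450h, and 4 without AiE0391h, AiE0452h, AiE0600m or DLX2.0. For members against other GABAergic nuclei the 4257 calls became 748 with limma, 2438 without library set B, 1958 in set A alone, 100 without the block and 90 with equal numbers; they became 6302 with DESeq2 (44 of its higher calls shared with the 91), 5225 without members carrying Sst, Pvalb or Lhx6, 4730 with stricter nuclei and 4620 with the label within a library set as the unit; leaving out 1 label gave 3072 to 4349. With every other Gad1+Gad2 nucleus as the comparison, 72 genes were higher and 4321 lower. The shares of members and of the Vip type stayed within their intervals under every alternative run. For members against the others, 9 single values changed sign, none past the threshold: with DESeq2 Gja1 (0.80), Neurod6 (0.56), Opalin (1.61), Serpinf1 (0.89) and Th (0.94), with equal numbers Arc (0.80) and Serpinf1 (0.01), with limma Ier2 (0.32) and without the block Ier2 (0.08), all log2 fold changes. The cause of these changes was not tested, apart from fewer samples where sets or labels were left out. Both comparisons were paired by vector label. No paired analysis was possible by replicate number, because these only count nuclei within a vector label. The Vip type rests on 15 nuclei, 1 in most labels, which limits what can be called.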

Other observations

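Some nuclei with Adarb2 or Vip fell outside the members. Adarb2 was read together with Gad1 or Gad2 and Slc17a7 in 9 nuclei from 9 vector labels, with Slc17a7 from 96.7 to 520 CPM; of these 2 had Vip, 3 Npy, 3 Lamp5, 3 Kit and 6 Synpr. Vip was read at 10 CPM or more in 7 other GABAergic nuclei without Adarb2, with a median of 482 CPM against 15917 CPM in the Vip type; 1 of the 7 had Crh, 1 had Htr3a, 4 had Satb1 and 3 had Sox6. Of the other GABAergic nuclei, 12 had no Sst, Pvalb or Lhx6, and 10 of these had Tac1, 11 Nxph1 and 7 Sox6. The member with neither Vip, Npy nor Lamp5 came from hI56i in library set C and had Adarb2 at 174 CPM, the lowest of all members, with Pvalb at 855 CPM and Sox6 at 112 CPM. Npy without Adarb2 was read in 100 other GABAergic nuclei, of which 64 had Sst and 82 Sox6, 10 had Id2, 7 Kit and 0 Ndnf or Cplx3, which allows up to 3 nuclei.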
